A study of Arabidopsis thaliana with 36 samples.

Results

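The comparison described here is between unstressed seedlings of an Arabidopsis thaliana double mutant lacking the transcription factors bZIP17 and bZIP28 and unstressed wild-type (WT) seedlings. Its members were chosen by genotype and treatment labels alone: the 3 bzip17/28 mock libraries and the 3 WT mock libraries, 6 of the 36 libraries of the series, which hold 12 groups of 3. Whole seedlings 12 days old were soaked for 6 h in water to which only the solvent DMSO had been added, and the 3' ends of their transcripts were sequenced. The labels call the mutant a double knockout and name neither its alleles nor the accession of the lines. For context, mock seedlings of the double mutants s1p/s2p, bzip28/60 and bzip17/60, and bzip17/28 and WT seedlings given tunicamycin at 5 µg/ml for 6 h, were compared in the same way.

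bZIP17 and bZIP28 are made as membrane proteins of the endoplasmic reticulum (ER). When unfolded proteins accumulate there they move to the Golgi, where the proteases S1P and S2P cut them, and the freed domains enter the nucleus and switch on genes for chaperones and other folding helpers, a program called the unfolded protein response. A second branch runs through the ER kinase and RNase IRE1, which splices the mRNA of another factor, bZIP60. Tunicamycin blocks N-glycosylation and so provokes the response.

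The 6 libraries held 1559173 to 2385337 counts assigned to genes, and 10480 of the 37336 loci passed the filter on low counts. Levels are given as CPM, counts scaled to a common library total with TMM factors, always for replicates 1, 2 and 3 in that order. Differences are given as log2 fold changes with a standard error. That error was worked back from the test, as the size of the log2 fold change over the square root of the F statistic. Reads shared by several transcript models of a gene are not in the counts, so levels of such genes are too low and levels are not compared between genes. For such genes a change in which model is used was not tested apart from a change in level. The bzip17/28 replicates lay closer together than the WT replicates, their biological coefficient of variation being 5.57% and that of WT 14.3%. WT mock 3 stood farthest from its group: the chi-square per degree of freedom was 3.51 and 5.66 for its pairs and 1.87 for WT mock 1 with 2. Nothing in the labels says that replicates were grown separately, so the p-values speak only of variation among libraries, part of which could be technical. That variation was estimated from all 36 libraries of the 12 groups together, not from these 6 alone.

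Both genes that name the mutant were low in its libraries. BZIP28 (AT3G10800) stood at 21.3, 29 and 23.4 CPM in WT and at 0.443, 0.412 and 0 in bzip17/28. These last values rest on 2 reads, and the ratio of levels was 85.0-fold with a 95% counting interval of 23.0 to 710. BZIP17 (AT2G40950) stood at 3.04, 7.6 and 11.7 CPM in WT and at 1.33, 0 and 0.435 in bzip17/28, a log2 fold change of -3.58 ± 0.62 (adjusted p = 5.36e-05). For neither gene did the groups overlap. S1P and S2P had 0 counts in all 6 libraries, where reads shared between their 3 and 9 transcript models are not counted.

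Many genes differed between bzip17/28 and WT seedlings without any added stress. 1894 of the 10480 genes tested, 18.1%, passed an adjusted p of 0.05 (edgeR's quasi-likelihood test, Benjamini-Hochberg adjustment). Of these, 960 (9.16%) were higher and 934 (8.91%) lower in bzip17/28, and 392 and 347 of them differed at least 2-fold. The 3 and 3 libraries did not overlap for 36.2% of all genes. Many genes named below were picked by adjusted p or fold change in these same libraries, so groups that lie apart add no separate support. Scaled by library size alone the split moved to 1350 higher of 1987, or 67.9% against 50.7%, with the median of all genes shifted from 0.00 to 0.11 on the log2 scale. Changes are reported relative to the TMM median, and list medians below compare with 0.00 for all genes.

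Among the ER folding genes the change went both ways: of 27 genes on the list 19 were tested, 6 fell, 4 rose and the median log2 fold change was -0.37. Without WT mock 1 there were 5 and 3 and the median was -0.20. The genes that fell were the calreticulins CRT1A and CRT1B, lectin chaperones that hold glycoproteins, the protein disulfide isomerase PDIL1-1, and 3 partners of the Hsp70 chaperone BiP: SDF2, ERDJ3B and P58IPK. CRT1A (AT1G56340) stood at 57.2, 56 and 51.9 CPM in WT and at 23, 27.6 and 30 in bzip17/28, a log2 fold change of -1.03 ± 0.21 (adjusted p = 0.000423). P58IPK (AT5G03160) stood at 122, 104 and 114 CPM in WT and at 48.3, 53.6 and 70.5 in the mutant (-0.98 ± 0.26, adjusted p = 0.0059). PDIL1-1 (AT1G21750) stood at 94.3, 82.2 and 79.7 CPM in WT and at 56.3, 49.4 and 49.2 in the mutant (-0.73 ± 0.16, adjusted p = 0.00089). In these 3 genes every mutant library lay below every WT library. CRT1B fell by 0.73 ± 0.18 on the log2 scale (adjusted p = 0.00452), SDF2 fell by 0.81 ± 0.18 (adjusted p = 0.00134) and ERDJ3B fell by 0.67 ± 0.17 (adjusted p = 0.00479). The ERDJ3B call was lost without WT mock 1 (adjusted p = 0.0611).

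BiP itself and calnexin did not pass in the fit of all 36 libraries. BIP1 stood at 168, 135 and 120 CPM in WT and at 112, 112 and 114 in bzip17/28 (-0.33 ± 0.14, adjusted p = 0.116). CNX1, the membrane-bound lectin chaperone, stood at 252, 191 and 193 CPM in WT and at 146, 164 and 182 in the mutant (-0.37 ± 0.15, adjusted p = 0.0784), and it passed when the 6 libraries were fitted alone (-0.38, adjusted p = 0.0381). In both genes the groups do not overlap, but the gap between them was smaller than the spread within WT. BIP1 and its near-identical copy BIP2 share reads, and BIP2 and BIP3 had no counts in these 6 libraries, so the BiP value is uncertain.

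The folding genes that rose were 3 disulfide isomerases and their oxidase. PDIL1-2 (AT1G77510) stood at 49.3, 25.6 and 35.7 CPM in WT and at 84.2, 87.8 and 80.1 in bzip17/28, a log2 fold change of 1.18 ± 0.19 (adjusted p = 1.41e-05). PDIL2-3 (AT2G32920) stood at 55.3, 60.1 and 42.9 CPM in WT and at 91.3, 111 and 114 in the mutant (1.00 ± 0.16, adjusted p = 9.22e-06). ERO1, which reoxidises disulfide isomerases, stood at 3.04, 1.38 and 4.46 CPM in WT and at 9.75, 9.07 and 10.4 in the mutant (1.65 ± 0.42, adjusted p = 0.00478). None of the 3 genes overlapped between the groups. PDIL1-5 also rose (0.77 ± 0.28, adjusted p = 0.0487), a call lost without WT mock 1 or 2 or bzip17/28 mock 2 or 3 (adjusted p from 0.0919 to 0.248). It was lost too with DESeq2 (0.0961), no filter on low counts (0.116), the libraries of the comparison alone (0.072) and loci of 1 transcript model (0.054).

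The other 7 folding genes tested did not pass. Their log2 fold changes were -0.70 for HSP90.7, -0.61 for PDIL1-3, -0.58 for PDIL1-4, -0.22 for PDIL2-2, 0.01 for PDIL1-6, 0.39 for ERDJ2B and 0.71 for ERO2. PDIL1-3 passed without WT mock 2 (adjusted p = 0.0325), and so did ERO2 (adjusted p = 0.0201).

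**Figure D1:**
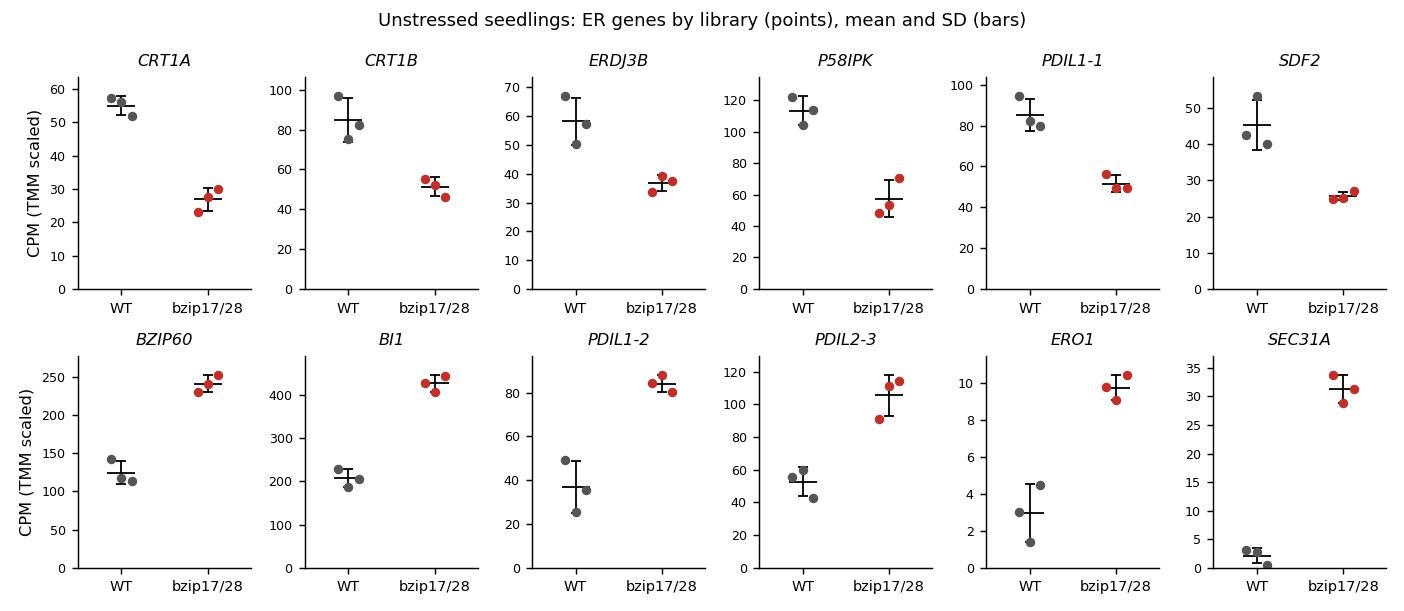
Levels of 12 ER genes in the 6 mock libraries, in TMM-scaled CPM; points are libraries and bars the mean and SD of 3. The upper row shows genes that fell in bzip17/28 and the lower row genes that rose, such as SEC31A, where the 3 mutant libraries (28.8 to 33.7 CPM) lie far above the 3 WT libraries (0.558 to 3.04 CPM).

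Of the 14 regulators of the response 8 were tested, and beside lower BZIP17 and BZIP28, BZIP60 and BI1 rose and TIN1 fell. BZIP60 (AT1G42990) stood at 142, 118 and 114 CPM in WT and at 230, 240 and 252 in bzip17/28, a log2 fold change of 0.95 ± 0.13 (adjusted p = 8.4e-07). BI1 (AT5G47120), BAX inhibitor 1, an ER membrane protein that restrains cell death, stood at 228, 187 and 206 CPM in WT and at 428, 406 and 444 in the mutant (1.04 ± 0.12, adjusted p = 9.19e-08). For both genes the lowest mutant library lay well above the highest WT library. TIN1 stood at 7.91, 6.91 and 8.36 CPM in WT and at 3.99, 2.88 and 1.74 in the mutant (-1.42 ± 0.42, adjusted p = 0.0141), a call lost without WT mock 3 (adjusted p = 0.0592) or bzip17/28 mock 3 (0.0844).

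The other regulators tested did not pass. NAC103, a factor downstream of bZIP60, stood at 0.608, 0 and 1.67 CPM in WT and at 2.22, 2.47 and 5.66 in the mutant (1.99 ± 0.79, adjusted p = 0.0761), and it passed with no filter on low counts (2.02, adjusted p = 0.0314). IRE1A stood at 25.5, 27.6 and 33.5 CPM in WT and at 27.9, 30.1 and 30 in the mutant (0.02 ± 0.20, adjusted p = 0.969). The ER co-chaperone BAG7 stood at 448, 478 and 403 CPM in WT and at 411, 516 and 485 in the mutant (0.09 ± 0.13, adjusted p = 0.703). The counts do not tell the spliced from the unspliced BZIP60 mRNA.

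Genes of vesicle traffic from the ER to the Golgi rose: 5 of 10 tested, with none lower and a median log2 fold change of 0.52. SEC31A (AT1G18830), an outer coat protein of COPII vesicles, showed the largest rise of any gene that met the naming rule. It stood at 3.04, 2.76 and 0.558 CPM in WT and at 33.7, 28.8 and 31.3 in bzip17/28, a log2 fold change of 3.89 ± 0.35 (adjusted p = 1.76e-10). ARFA1D, an Arf GTPase, stood at 7.3, 6.22 and 3.35 CPM in WT and at 14.6, 17.3 and 18.3 in the mutant (1.59 ± 0.38, adjusted p = 0.00245). SEC12, the exchange factor that loads the COPII GTPase SAR1, rose by 0.54 ± 0.14 on the log2 scale (adjusted p = 0.0059). In each of these 3 genes the groups were apart. The rule for naming the largest rises required this of SEC31A, and the low adjusted p that named the others favours it. SAR1B and SLY1 were the other rises.

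Few genes of the other steps of the secretory pathway passed, and 18.1% of all genes tested did. In lists this small the counts do not set these steps apart from that share. Of 14 translocation genes tested SEC61G2, the gamma subunit of the translocon, fell from 266, 278 and 228 CPM to 164, 168 and 161 (-0.64 ± 0.12, adjusted p = 0.000202), and TRAPA passed in the other direction (0.43 ± 0.15, adjusted p = 0.0399). Of 8 N-glycosylation genes tested only OST3/6, a subunit of oligosaccharyltransferase, passed (-0.67 ± 0.19, adjusted p = 0.00991). Of 9 degradation genes tested only the ATPase gene CDC48A passed (0.38 ± 0.13, adjusted p = 0.037). The calls of TRAPA, OST3/6 and CDC48A were each lost on leaving out a library: TRAPA without any 1 of the 6 libraries (adjusted p from 0.0546 to 0.129), OST3/6 without WT mock 1 or 3 (0.0708 and 0.0674) and CDC48A without WT mock 3 or any mutant library (0.0511 to 0.221). With no filter on low counts the calls of TRAPA (0.0852) and CDC48A (0.0687) were lost too. That of CDC48A was also lost with loci of 1 transcript model (0.0514). None of the 4 ER body genes tested passed (median 0.25). Without WT mock 3 or with library size alone 1 was called higher, and the median ran from 0.13 without WT mock 2 to 0.42 without WT mock 3. The medians of the translocation, N-glycosylation and degradation lists were 0.22, -0.09 and 0.04, and that of N-glycosylation was 0.02 with library size alone. The degradation median ran from -0.03 without bzip17/28 mock 3 to 0.12 without WT mock 1, and that of N-glycosylation from -0.14 without bzip17/28 mock 2 to -0.01 without WT mock 1.

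The promoters of 6 of these genes are shown because each holds a motif known to bind the factors of the response, in 3 genes that fell and 3 that rose. TIN1, which fell, and SAR1B, which rose, also hold a motif and are not shown. Each sequence is the 250 bases before the annotated start of the gene, read 5' to 3' toward the gene, from RefSeq TAIR10.1. Capitals mark matches on either strand to ERSE (CCAAT, then 10 bases of any kind, then CACG) or UPRE (TGACGTGG).
CRT1A upstream of AT1G56340, chr1:21092710-21092959, minus strand: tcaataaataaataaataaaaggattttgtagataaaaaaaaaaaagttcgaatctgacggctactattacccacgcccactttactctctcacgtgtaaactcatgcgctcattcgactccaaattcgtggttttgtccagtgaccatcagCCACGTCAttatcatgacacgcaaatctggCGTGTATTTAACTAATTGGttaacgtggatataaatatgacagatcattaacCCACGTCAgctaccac
P58IPK upstream of AT5G03160, chr5:749851-750100, plus strand: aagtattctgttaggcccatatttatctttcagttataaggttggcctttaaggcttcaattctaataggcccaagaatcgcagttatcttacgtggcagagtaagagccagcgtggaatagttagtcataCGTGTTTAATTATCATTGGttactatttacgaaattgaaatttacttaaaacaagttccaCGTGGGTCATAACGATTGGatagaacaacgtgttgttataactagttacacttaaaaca
PDIL1-1 upstream of AT1G21750, chr1:7645360-7645609, plus strand: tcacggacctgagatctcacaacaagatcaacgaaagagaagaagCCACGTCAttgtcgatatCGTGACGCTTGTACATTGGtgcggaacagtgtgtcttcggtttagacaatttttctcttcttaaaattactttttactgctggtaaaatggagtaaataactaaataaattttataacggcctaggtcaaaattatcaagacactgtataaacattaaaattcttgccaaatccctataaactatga
BI1 upstream of AT5G47120, chr5:19135702-19135951, plus strand: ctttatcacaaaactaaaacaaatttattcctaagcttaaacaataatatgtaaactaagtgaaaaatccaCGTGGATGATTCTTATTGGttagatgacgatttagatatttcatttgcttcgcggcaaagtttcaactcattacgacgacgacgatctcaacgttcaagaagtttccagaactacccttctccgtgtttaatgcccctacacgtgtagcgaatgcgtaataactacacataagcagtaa
PDIL1-2 upstream of AT1G77510, chr1:29126398-29126647, plus strand: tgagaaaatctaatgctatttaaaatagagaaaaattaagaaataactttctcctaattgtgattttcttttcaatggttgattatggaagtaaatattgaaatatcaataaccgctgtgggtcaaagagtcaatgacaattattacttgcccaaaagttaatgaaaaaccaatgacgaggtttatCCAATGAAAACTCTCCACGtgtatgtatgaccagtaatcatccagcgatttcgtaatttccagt
ARFA1D upstream of AT1G70490, chr1:26565866-26566115, minus strand: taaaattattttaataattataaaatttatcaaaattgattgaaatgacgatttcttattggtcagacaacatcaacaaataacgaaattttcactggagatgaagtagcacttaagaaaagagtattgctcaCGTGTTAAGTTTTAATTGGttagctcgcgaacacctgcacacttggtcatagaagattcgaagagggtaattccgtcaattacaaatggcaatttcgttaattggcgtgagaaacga

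In CRT1A 1 ERSE lies between 2 UPRE, and the nearest motif begins 16 bases before the start. P58IPK holds 2 ERSE and PDIL1-1 an ERSE beside a UPRE, while BI1, PDIL1-2 and ARFA1D, which rose, hold 1 ERSE each. With ERSE-II (ATTGG, any base, CCACG) and P-UPRE-II, which matched nowhere, also searched on both strands, a motif was found upstream of 270 of 10175 tested protein-coding genes (2.65%), of 24 of 945 that rose (2.54%) and of 25 of 876 that fell (2.85%). In the ER and secretory lists 4 of 13 higher genes, 4 of 11 lower genes and 6 of 44 that were not called held one. Genes with none included CRT1B, SDF2 and ERDJ3B, which fell, and BZIP60, SEC31A, PDIL2-3 and ERO1, which rose. A match describes letters in this window and shows no binding.

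Many jasmonate genes were higher in bzip17/28. 13 of 17 tested were higher and 1, the repressor gene JAZ6, was lower, with a median log2 fold change of 1.62. The JAZ6 call was lost without bzip17/28 mock 2. AOC2 (AT3G25770), an allene oxide cyclase of jasmonate synthesis, stood at 94.9, 53.2 and 90.9 CPM in WT and at 355, 380 and 392 in bzip17/28 (2.23 ± 0.23, adjusted p = 4e-09). MYC2 (AT1G32640), the transcription factor at the head of the jasmonate response, stood at 97.9, 87.8 and 107 CPM in WT and at 220, 248 and 262 in the mutant (1.32 ± 0.14, adjusted p = 9.07e-09). In both genes every mutant library lay above every WT library. The jasmonate-induced chlorophyllase gene CLH1 rose from 173, 105 and 209 CPM to 546, 690 and 798 (2.06 ± 0.22, adjusted p = 1.5e-08). AOC2 shares sequence with AOC1, AOC3 and AOC4, and reads may be split among them.

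2 jasmonate-responsive enzyme genes were among the largest rises of all. NATA1 (AT2G39030), an N-acetyltransferase acting on ornithine, stood at 7.3, 2.76 and 10.6 CPM in WT and at 78.9, 90.2 and 111 in bzip17/28 (3.70 ± 0.45, adjusted p = 1.21e-07). TAT3 (AT2G24850), a tyrosine aminotransferase, stood at 4.87, 2.76 and 10 CPM in WT and at 52.7, 59.8 and 73.6 in the mutant (3.33 ± 0.42, adjusted p = 2.8e-07). The lowest mutant library exceeded the highest WT library several-fold in each.

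Immune genes also rose, 9 of 15 tested with none lower and a median of 1.11, a count that fell to 5 without WT mock 2. WRKY70, a transcription factor of salicylate signalling, stood at 58.4, 43.5 and 32.9 CPM in WT and at 120, 135 and 159 in bzip17/28 (1.62 ± 0.22, adjusted p = 1.02e-06). PAD4, a lipase-like immune regulator, stood at 42.6, 28.3 and 17.3 CPM in WT and at 68.7, 72.9 and 79.7 in the mutant (1.33 ± 0.23, adjusted p = 6.34e-05). EDS5, the exporter of salicylate precursor from the chloroplast, rose by 1.88 ± 0.40 (adjusted p = 0.000844). CYP71A12, a cytochrome P450 of indole defence compounds, is not on this list and was named among the largest rises of all genes. It rose from 9.73, 7.6 and 23.4 CPM to 126, 161 and 172 (3.44 ± 0.35, adjusted p = 3.94e-09), and may share reads with its close copy CYP71A13. All 4 genes were apart between the groups. The rule for naming the largest rises required this of CYP71A12, and the low adjusted p that named the others favours it.

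Sulfur and phosphate starvation genes were higher in bzip17/28. Of 12 sulfur genes tested 6 rose, none fell and the median was 0.92. LSU1, a small protein induced by low sulfur, stood at 7.91, 6.22 and 4.46 CPM in WT and at 52.3, 65.9 and 80.5 in the mutant (3.42 ± 0.44, adjusted p = 3.01e-07). LSU3 followed it, from 7.91, 4.84 and 6.13 CPM to 41.2, 40.4 and 47 (2.75 ± 0.40, adjusted p = 3.66e-06), and APR1, the APS reductase of sulfate assimilation, rose by 1.42 ± 0.20 (adjusted p = 1.72e-06). The LSU genes are close copies and reads may be split among them.

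Of 8 phosphate starvation genes tested 6 rose, none fell and the median was 1.90. The count of rises was 4 without WT mock 1 or 2 and 5 without bzip17/28 mock 2 or 3. PPSPASE1, a pyrophosphatase, stood at 10.9, 1.38 and 8.92 CPM in WT and at 76.7, 70.9 and 68.8 in bzip17/28 (3.29 ± 0.40, adjusted p = 1.21e-07). The ribonuclease gene RNS1 rose from 13.4, 5.53 and 13.9 CPM to 58.9, 51.1 and 70.5 (2.42 ± 0.27, adjusted p = 3.16e-08), and the phosphate sensor gene SPX1 rose from 55.3, 44.9 and 44.6 CPM to 139, 123 and 122 (adjusted p = 3.49e-07). PHT1;4, a root phosphate transporter, is counted on the root nutrient transport list and not on this one. It stood at 14, 7.6 and 11.7 CPM in WT and 40.3, 43.7 and 42.7 in the mutant (1.91 ± 0.30, adjusted p = 9.22e-06). These 4 genes were apart between the groups. The rule for naming the largest rises required this of PPSPASE1, and the low adjusted p that named the others favours it.

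Glutathione transferase and oxidative stress genes rose in 12 of 19 tested, with none lower and a median of 0.91. GSTF10 stood at 1075, 973 and 1128 CPM in WT and at 2118, 2340 and 2522 in bzip17/28 (1.14 ± 0.14, adjusted p = 2.27e-07). GSTU4 rose by 2.07 ± 0.32 (adjusted p = 1.08e-05) and GSTF7 by 1.17 ± 0.21 (adjusted p = 7.3e-05), though GSTF7 has a near-identical copy, GSTF6. Smaller shares rose among aliphatic glucosinolate genes (4 of 16, none lower, median 0.41), led by SOT18, a sulfotransferase (0.92 ± 0.16, adjusted p = 4.12e-05). Their median was 0.27 without WT mock 2 and 0.64 without WT mock 3. Abscisic acid and dehydration genes went both ways, 5 higher and 2 lower of 13 (median -0.01), with the receptor-inhibited phosphatase ABI1 higher (0.80 ± 0.17, adjusted p = 0.000985). The 2 lower calls became 1 without WT mock 1 or any 1 bzip17/28 library and 0 without WT mock 2, and the median ran from -0.07 without bzip17/28 mock 3 to 0.13 without WT mock 3. Of 5 flavonoid genes (median 0.49, and 0.78 without WT mock 2) PAP1, an anthocyanin MYB factor, rose from 0.608, 1.38 and 1.12 CPM to 7.53, 9.07 and 5.66 (2.79 ± 0.66, adjusted p = 0.0023). CHI passed too (0.73 ± 0.24, adjusted p = 0.0292), a call lost without any of WT mock 1 or 3 and bzip17/28 mock 2 or 3 (0.0671 to 0.132).

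**Figure D2:**
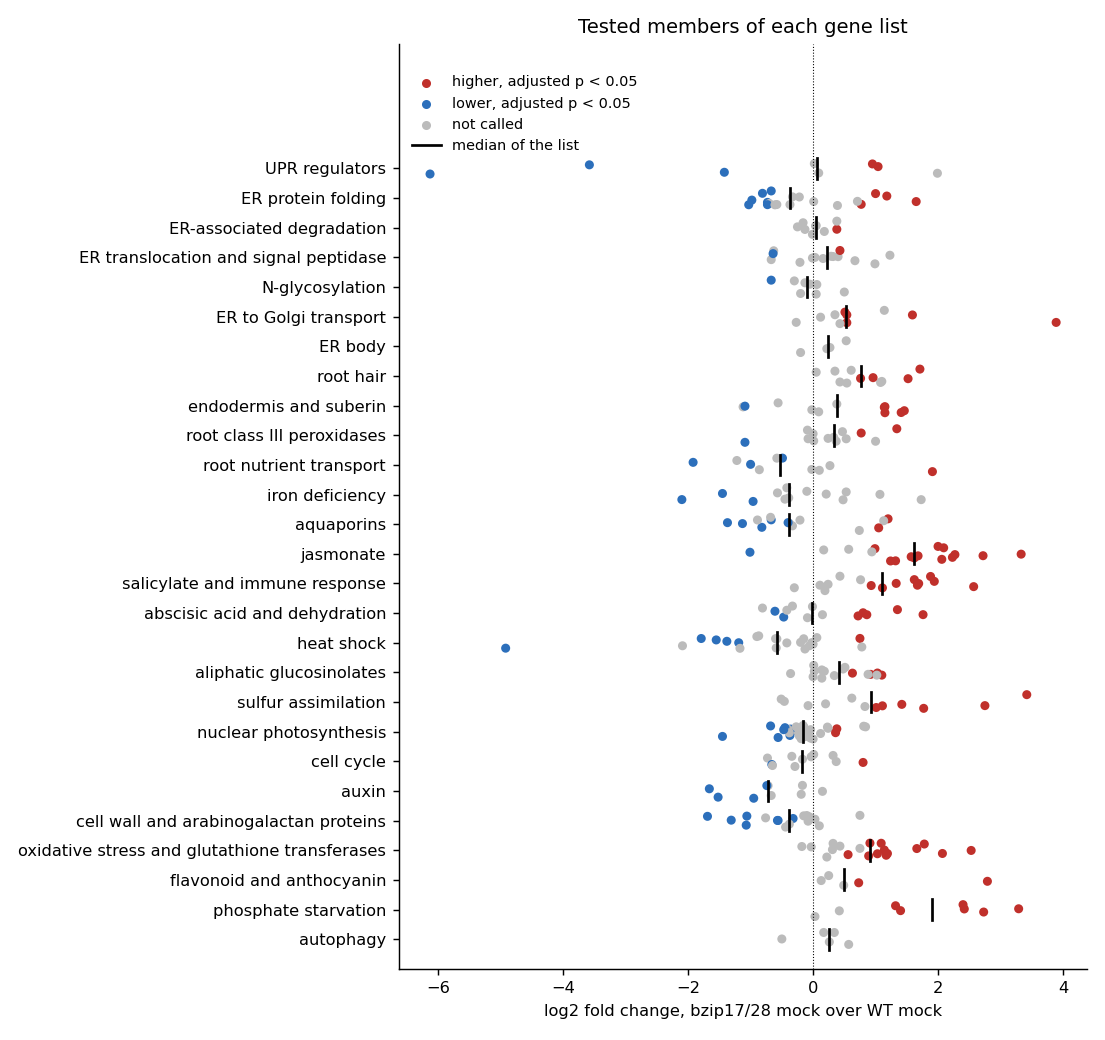
Log2 fold change, bzip17/28 mock over WT mock, of every tested member of the 27 gene lists; red and blue points passed an adjusted p of 0.05 and black bars are list medians. Jasmonate (median 1.62), phosphate starvation (1.90) and immune genes (1.11) lie mostly to the right of 0 and auxin genes (median -0.72) to the left; vertical jitter carries no value.

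Several cell wall genes were lower. Of 17 cell wall genes tested 7 fell, none rose and the median was -0.38. EXPA8, an expansin that loosens walls, stood at 65.7, 56.7 and 75.8 CPM in WT and at 20.4, 20.6 and 20.5 in bzip17/28 (-1.69 ± 0.28, adjusted p = 2.22e-05). XTH22 and XTH24 encode xyloglucan-modifying enzymes. XTH24 stood at 2197, 2084 and 2297 CPM in WT and at 1092, 1042 and 1019 in the mutant (-1.06 ± 0.18, adjusted p = 3.26e-05), and XTH22 fell by 1.07 ± 0.18 on the log2 scale (adjusted p = 2.4e-05). In all 3 genes the groups were apart. With library size alone 1 member of this list was called higher and 6 lower.

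Of 9 auxin genes tested 4 fell, none rose and the median was -0.72. PIN3, an auxin efflux carrier, stood at 83.3, 70.5 and 78.6 CPM in WT and at 46.1, 37.1 and 37.4 in bzip17/28 (-0.95 ± 0.17, adjusted p = 7.45e-05). The auxin repressor gene IAA17 stood at 161, 162 and 190 CPM in WT and at 102, 103 and 103 in the mutant (-0.74 ± 0.18, adjusted p = 0.00387). Both were apart between the groups. PIN7 was called (-1.66 ± 0.52, adjusted p = 0.0211) on WT values of 6.08, 0.691 and 15.6 CPM that overlap those of the mutant, 3.55, 2.88 and 0.871, and the call was lost without WT mock 3 (adjusted p = 0.657) or bzip17/28 mock 3 (0.13). Without either library 2 auxin genes were called. With limma-voom the PIN7 call was lost too (adjusted p = 0.155).

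Root and water-transport lists did not move as one. Aquaporin genes were lower in 5 of 14 tested and higher in 2, median -0.39. PIP2;7 stood at 577, 567 and 584 CPM in WT and at 245, 269 and 275 in bzip17/28 (-1.13 ± 0.13, adjusted p = 7.55e-08), PIP1;5 fell by 0.82 ± 0.12 (adjusted p = 4.8e-06) and TIP2;1 by 0.67 ± 0.12 (adjusted p = 0.000111). Without WT mock 3 the count of lower aquaporins was 3. Of 13 iron genes 3 fell and none rose (median -0.39): F6'H1, an enzyme of coumarin synthesis, from 80.3, 89.8 and 76.4 CPM to 35.9, 40.4 and 50.1 (-0.96 ± 0.21, adjusted p = 0.00092), and the nicotianamine synthases NAS1 (-1.45 ± 0.38, adjusted p = 0.00591) and NAS2 (-2.10 ± 0.71, adjusted p = 0.0344). The iron median turned to 0.04 without WT mock 2 and was -0.12 to -0.24 without WT mock 3 or bzip17/28 mock 2 or 3. The NAS2 call was lost without any 1 of the 6 libraries (adjusted p 0.054 to 0.111) and with DESeq2 (0.0599). Of 10 root nutrient transporters 1, PHT1;4, rose and 3 fell (median -0.54). HAK5, a potassium transporter, was lower, at 37.7, 53.9 and 18.4 CPM in WT and 9.31, 8.24 and 10.9 in the mutant (-1.92 ± 0.30, adjusted p = 8.12e-06), as was the ammonium transporter AMT1;1 (-0.49 ± 0.13, adjusted p = 0.00509).

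4 of 11 root hair genes rose and none fell (median 0.76), 5 of 11 endodermis genes rose and 1 fell (0.38), and 2 of 13 peroxidase genes rose and 1 fell (0.33), the last beside 9.16% and 8.91% of all genes. The endodermis median was 0.90 without WT mock 2 and 0.16 without WT mock 3, and the peroxidase median was 0.21 without WT mock 1. These counts were small and moved with single libraries: without WT mock 1 they were 2 root hair and 2 endodermis genes higher, and without WT mock 3, 2 root hair, 1 endodermis and no peroxidase gene. Without bzip17/28 mock 1, 2 or 3 there were 4, 2 and 2 root hair, 2, 4 and 3 endodermis and 2, 2 and 1 peroxidase genes higher. 1 endodermis gene was called lower without WT mock 2 and none without any other of the 6. RHS18, a root hair peroxidase, stood at 1.82, 4.15 and 3.9 CPM in WT and at 8.86, 9.89 and 13.9 in the mutant (1.71 ± 0.43, adjusted p = 0.00407). PRX27 went the other way, from 85.8, 96.1 and 54.6 CPM to 40.8, 35 and 34.8 (-1.09 ± 0.22, adjusted p = 0.000355).

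Of 31 photosynthesis genes tested 7 were lower and 2 higher, with a median of -0.16, or -0.09 without WT mock 3. LHCB1.3, a light-harvesting protein of photosystem II, stood at 15416, 16654 and 15884 CPM in WT and at 10289, 9977 and 9735 in bzip17/28 (-0.68 ± 0.13, adjusted p = 0.000331). PSAG, a subunit of photosystem I, fell by 0.56 ± 0.12 (adjusted p = 0.00089) and LHCB2.1 by 0.45 ± 0.11 (adjusted p = 0.00325). With library size alone the list had 4 higher and 4 lower, and without WT mock 3 or bzip17/28 mock 3 the lower count was 4. The 2 higher calls became 0 or 1 without any 1 of the 6 libraries. LHCB1 genes are near-identical copies.

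Summed levels of the tissue markers moved with genotype. The 23 root hair genes summed to 110 to 152 CPM in WT libraries and 182 to 211 in bzip17/28, with COW1, MRH6, EXT6 and EXT12 at 0 in both. The 14 endodermis genes summed to 125 to 152 against 163 to 181 CPM, with ASFT and FAR4 at 0, and the 17 root peroxidases to 1028 to 1178 against 1200 to 1250, with PRX1, PRX2 and PRX44 at 0. The 38 photosynthesis genes summed to 137225 to 146969 CPM in WT and 114958 to 120029 in bzip17/28. In each of the 4 sums the groups were apart, as they were for 36.2% of all genes tested. In the root hair, endodermis and peroxidase sums the gap between the groups was smaller than the spread within WT. The part of root and shoot proportions in the results above was not tested, and in whole seedlings fewer cells of a type and less RNA per cell cannot be told apart.

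Heat shock genes were called lower in 5 of 22 and higher in 1 (median -0.58), but the counts hung on single libraries. HSP17.4, a cytosolic small heat shock protein, stood at 54.1, 24.2 and 141 CPM in WT and between 23 and 29.3 in bzip17/28 (-1.55 ± 0.41, adjusted p = 0.00572), so that WT mock 2 lay inside the mutant range. Without WT mock 3 its value was -0.64 (adjusted p = 0.355), that of HSP17.6A -0.72 (0.359) and that of HSP23.6 -1.14 (0.279). The list then had a median of -0.15 and 1 lower gene, against 9 without WT mock 2, 3 without WT mock 1 and 2 to 3 without a mutant library. The calls of HSP17.4 and HSP17.6A were also lost with DESeq2 (0.0585 and 0.133) and that of HSP23.6 with limma-voom (0.123). Reads of HSP17.6 copies may be shared. Of 11 cell cycle genes (median -0.17, from -0.04 without WT mock 1 to -0.31 without WT mock 2) the ribonucleotide reductase TSO2 was called higher and the kinase CDKB2;1 lower (adjusted p = 0.0105 and 0.0433). Of all genes tested 9.16% were higher and 8.91% lower, and 1 call each way among 11 genes does not stand apart from these shares. The calls of TSO2 and CDKB2;1 were each lost without WT mock 1 (0.0692 and 0.126) or bzip17/28 mock 3 (0.0793 and 0.201). That of CDKB2;1 was also lost without bzip17/28 mock 1 (0.226) or WT mock 3 (0.293). DESeq2 (0.0645) and a fit of the compared libraries by themselves (0.0711) lost it too. So did keeping genes of low counts (0.0949) and scaling only by library size (0.101). None of 5 autophagy genes passed (median 0.26), and 2 did with library size alone (median 0.37).

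**Figure D3:**
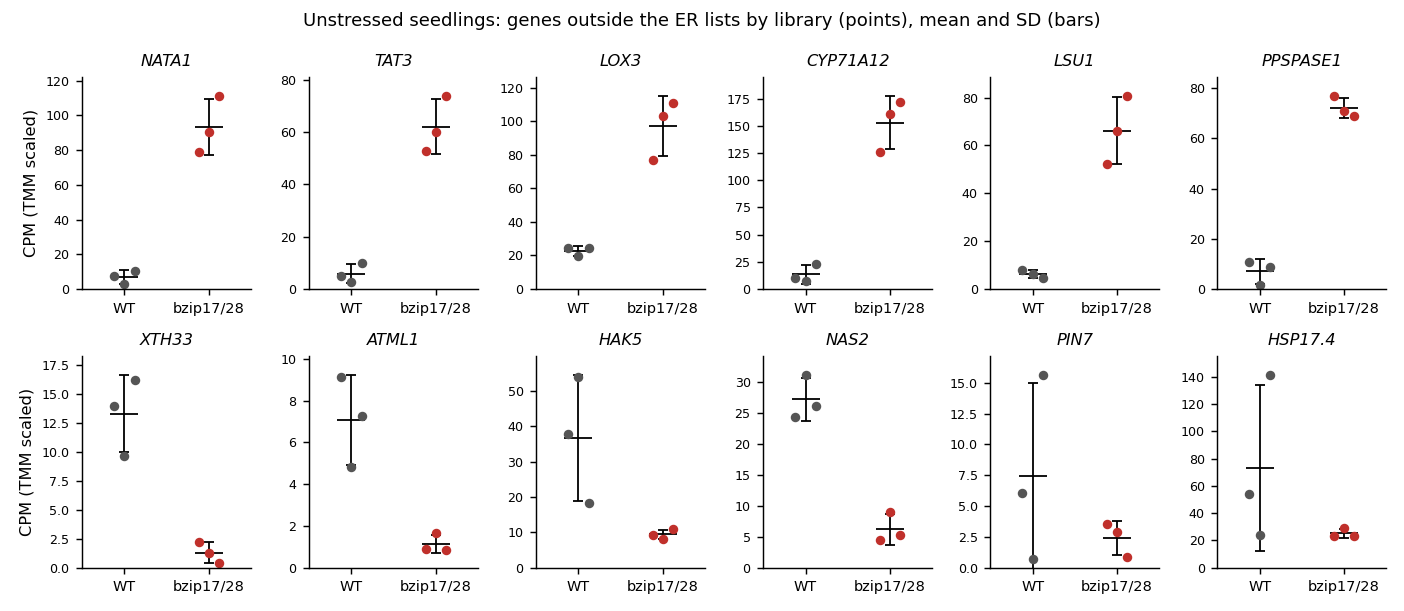
Levels of 12 genes outside the ER lists in the 6 mock libraries, in TMM-scaled CPM; points are libraries and bars the mean and SD of 3. NATA1, TAT3, LSU1 and PPSPASE1 are high in all 3 bzip17/28 libraries, XTH33 and ATML1 low, and HSP17.4 shows WT mock 3 (141 CPM) apart from WT mock 1 and 2.

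Several of the largest rises lay outside the lists. RLP40, a receptor-like protein, stood at 0.608, 0 and 3.35 CPM in WT and at 11.5, 20.2 and 22.6 in bzip17/28 (3.62 ± 0.55, adjusted p = 8.37e-06). AT5G25260, a band 7 membrane protein, stood at 7.3, 5.53 and 5.58 CPM in WT and at 54.1, 60.6 and 54.4 in the mutant (3.19 ± 0.37, adjusted p = 6.68e-08). MSRB8, a methionine sulfoxide reductase, rose by 3.46 ± 0.69 (adjusted p = 0.000352) and the cupin gene AT4G36700 by 3.52 ± 0.93 (adjusted p = 0.00631). In all 4 the groups were apart, which the rule for naming the largest rises required. 2 more rest on 2 or 3 WT reads: AT5G59330, of the lipid-transfer protein superfamily, was 12.9-fold higher (95% counting interval 3.34 to 111), and the RNA gene AT2G08820 8.40-fold (2.65 to 42.6). The AT2G08820 call was lost without any of WT mock 1, 2 and 3 and bzip17/28 mock 2 and 3 (adjusted p 0.0623 to 0.138). It was also lost with limma-voom (0.0503).

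The largest falls included wall and epidermis genes. XTH33, a xyloglucan-modifying enzyme, stood at 14, 9.68 and 16.2 CPM in WT and at 2.22, 1.24 and 0.435 in bzip17/28 (-3.32 ± 0.49, adjusted p = 4.17e-06). ATML1, a homeodomain factor of epidermal identity, stood at 9.12, 4.84 and 7.25 CPM in WT and at 0.886, 1.65 and 0.871 in the mutant (-2.58 ± 0.53, adjusted p = 0.000525). AT2G01610, annotated as a pectin methylesterase inhibitor, fell by 3.05 ± 0.59 (adjusted p = 0.000263), the glycine-rich protein gene AT1G04660 by 2.59 ± 0.38 (adjusted p = 4.28e-06) and the uncharacterized AT1G55335 by 2.52 ± 0.33 (adjusted p = 5.87e-07). All 5 were apart between the groups, which the rule for naming the largest falls required.

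The rest of the falls were less even among the WT libraries. AT2G25560, a DnaJ protein, stood at 1428, 1831 and 172 CPM in WT and at 112, 94 and 71.4 in bzip17/28 (-3.63 ± 0.43, adjusted p = 6.68e-08). The RNA gene AT5G03205 stood at 6.69, 16.6 and 3.35 CPM in WT and 2.66, 0.412 and 0 in the mutant (-3.01 ± 0.72, adjusted p = 0.00245), a call lost without WT mock 2 (0.0616). The chloroplast locus ATCG00630 stood at 26.8, 8.29 and 49.1 against 5.32, 2.06 and 2.61 CPM (-3.10 ± 0.67, adjusted p = 0.000871). AT1G51440, an alpha/beta hydrolase with 3 reads in the mutant, was 18.6-fold lower (95% counting interval 5.91 to 94.0). The RNA gene AT2G05995 stood at 1.22, 6.91 and 8.92 CPM in WT and had 2 reads in the mutant, a counting interval of 5.05 to 173 for the ratio. WT values differed by several-fold in each of these 5 genes. That the groups were apart was required by the rule for naming the largest falls.

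The same libraries were set against the other double mutants, which asks where losing this pair of factors differs from losing their proteases or a pair that includes bZIP60. All of these comparisons use the same bzip17/28 mock libraries. 1074 genes (10.2%) differed from s1p/s2p, 634 higher (6.05%) and 440 lower (4.20%) in bzip17/28. 1326 (12.7%) differed from bzip28/60, 821 higher (7.83%) and 505 lower (4.82%), and 1598 (15.2%) from bzip17/60, 846 higher (8.07%) and 752 lower (7.18%). With library size alone the last split was 1097 higher of 1608, 68.2% against 52.9%.

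In the fit of all 36 libraries none of the 19 folding genes passed against s1p/s2p, and 3 were higher and 4 lower in each of the other comparisons. Fitted with the libraries of the comparison alone or with limma-voom, PDIL1-2 (adjusted p = 0.0194 and 0.0343), BIP1 (0.014 and 0.0361) and CNX1 (0.0186 and 0.0375) did pass against s1p/s2p, as did CNX1 without s1p/s2p mock 1 (0.0397). SEC31A stood at 16.6, 11.7 and 11.8 CPM in s1p/s2p, between WT and bzip17/28, and was higher in bzip17/28 by 1.23 ± 0.23 (adjusted p = 0.000228). BI1 was also higher than in s1p/s2p (0.45 ± 0.12, adjusted p = 0.0118), a call lost without bzip17/28 mock 3 (0.0538) or s1p/s2p mock 3 (0.135). BZIP60 (0.29 ± 0.12, adjusted p = 0.14), PDIL1-2 (0.46 ± 0.17, 0.0899) and CRT1A (-0.47 ± 0.21, 0.177) did not pass in the fit of all libraries, which does not show that they are equal. BZIP60 passed in both of the other fits (0.0443 and 0.0432). In bzip28/60 and bzip17/60 SEC31A stood at 0 to 1.78 CPM, BI1 at 182 to 229 and PDIL1-2 at 23 to 33.2. bzip17/28 was higher than both in PDIL1-2 (1.83 ± 0.19 and 1.63 ± 0.19, adjusted p = 1.54e-09 and 2.45e-08) and BI1 (0.97 ± 0.12 and 1.18 ± 0.12, 1.17e-07 and 2.01e-09). BZIP60 itself stood at 25.9 to 36.4 CPM in the mutants of that gene.

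Most jasmonate genes were higher in bzip17/28 than in each other mutant. 11 of 17 jasmonate genes were higher than in s1p/s2p (6.05% of all genes were), 16 than in bzip28/60 (7.83%) and 15 than in bzip17/60 (8.07%), and none was lower. NATA1 is not on that list. It stood at 0 to 7.78 CPM in s1p/s2p, a difference from bzip17/28 of 4.89 ± 0.50 (adjusted p = 4.82e-09), and at 0 to 1.02 in bzip28/60 and bzip17/60, too few reads for a fold change. CLH1 stood at 153 to 249 CPM in s1p/s2p, 76.2 to 121 in bzip28/60 and 83.7 to 137 in bzip17/60, and bzip17/28 was higher by 1.69 ± 0.22, 2.86 ± 0.23 and 2.55 ± 0.23 (adjusted p = 4.83e-07, 2.46e-12 and 6.53e-11). GASA6, a gibberellin-regulated peptide gene, was lower than in each: 117, 119 and 108 CPM against 327 to 446, 453 to 744 and 452 to 573 (-1.77 ± 0.25, -2.28 ± 0.25 and -2.19 ± 0.25, adjusted p = 2.21e-06, 5.92e-09 and 1.51e-08). Root hair genes differed most often from s1p/s2p: all 11 tested were higher in bzip17/28 than there, their sum was 37.9 to 55.0 CPM in s1p/s2p, and 1 and 3 were higher than in bzip28/60 and bzip17/60.

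**Figure D4:**
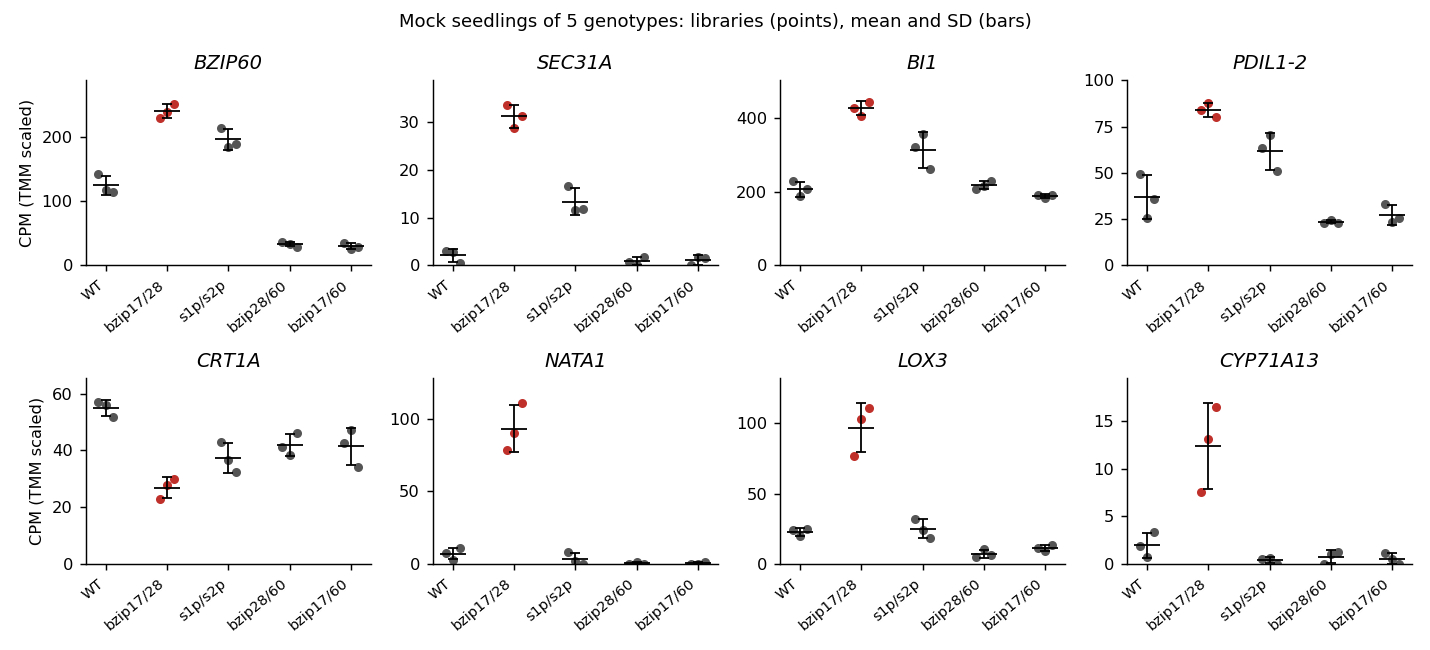
Levels of 8 genes in mock seedlings of 5 genotypes, in TMM-scaled CPM; points are libraries, bars the mean and SD of 3, and bzip17/28 is in red. BZIP60, SEC31A, BI1 and PDIL1-2 are highest in bzip17/28 with s1p/s2p next, and NATA1, LOX3 and CYP71A13 are highest in bzip17/28; LOX3, a lipoxygenase of jasmonate synthesis, was added after its values were seen.

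The genotype difference was then read in 6 other libraries, bzip17/28 and WT under tunicamycin, which share no library with the mock comparison. There 3712 genes (35.4%) differed, 1778 higher (17.0%) and 1934 lower (18.5%). With library size alone the split was 2277 higher of 3812, 59.7% against 47.9%. Of the 960 genes higher under mock 645 (67.2%) were higher under tunicamycin and 8 (0.833%) lower, with a median log2 fold change of 0.82. Of the 934 lower under mock 673 (72.1%) were lower and 11 (1.18%) higher, with a median of -0.85. The WT tunicamycin libraries were the most variable of the 12 groups, with a biological coefficient of variation of 28.2%.

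The 6 folding genes that were lower without stress were lower under tunicamycin too, while TIN1 and SEC61G2 did not pass there (-0.18 ± 0.17 and -0.20 ± 0.12, adjusted p = 0.435 and 0.174). CRT1A stood at 157, 79.2 and 154 CPM in WT and at 14.9, 22.1 and 24.4 in bzip17/28 (-2.66 ± 0.20, adjusted p = 1.34e-13), and the difference between this and the mock value was -1.63 ± 0.29 (adjusted p = 0.000394). CRT1B (-2.65 ± 0.17, adjusted p = 1.36e-15) and PDIL1-1 (-1.56 ± 0.14, adjusted p = 1.04e-11) also differed more than under mock (differences -1.93 ± 0.25 and -0.83 ± 0.21, adjusted p = 2e-06 and 0.0139). For PDIL1-1 that difference was lost without bzip17/28 mock 1 (adjusted p = 0.0564). For SDF2, P58IPK and ERDJ3B no difference between the conditions passed (adjusted p = 0.0929, 0.391 and 0.727). That of SDF2 did without WT tunicamycin 1 (adjusted p = 0.0338) and that of P58IPK without WT tunicamycin 3 (adjusted p = 0.0395).

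BI1, BZIP60 and SEC31A were higher under tunicamycin as well. BI1 stood at 765, 745 and 598 CPM in WT and at 3297, 3318 and 3243 in bzip17/28 (2.23 ± 0.12, adjusted p = 3.35e-17), more than under mock by 1.19 ± 0.17 (adjusted p = 1.95e-05). BZIP60 stood at 862, 801 and 653 CPM in WT and at 1880, 1623 and 1845 in the mutant (1.21 ± 0.12, adjusted p = 1.68e-10), and SEC31A at 42.4, 38 and 39.7 against 435, 544 and 472 (3.59 ± 0.18, adjusted p = 1.77e-18). For these last 2 the genotype difference did not pass a test between conditions (0.26 ± 0.17 and -0.29 ± 0.44, adjusted p = 0.457 and 0.777). Over all genes 432 (4.12%) passed that test, 210 upward (2.00%) and 222 downward (2.12%). Without WT tunicamycin 1 the number was 1084, and it ranged from 269 to 467 without any other 1 library.

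**Figure D5:**
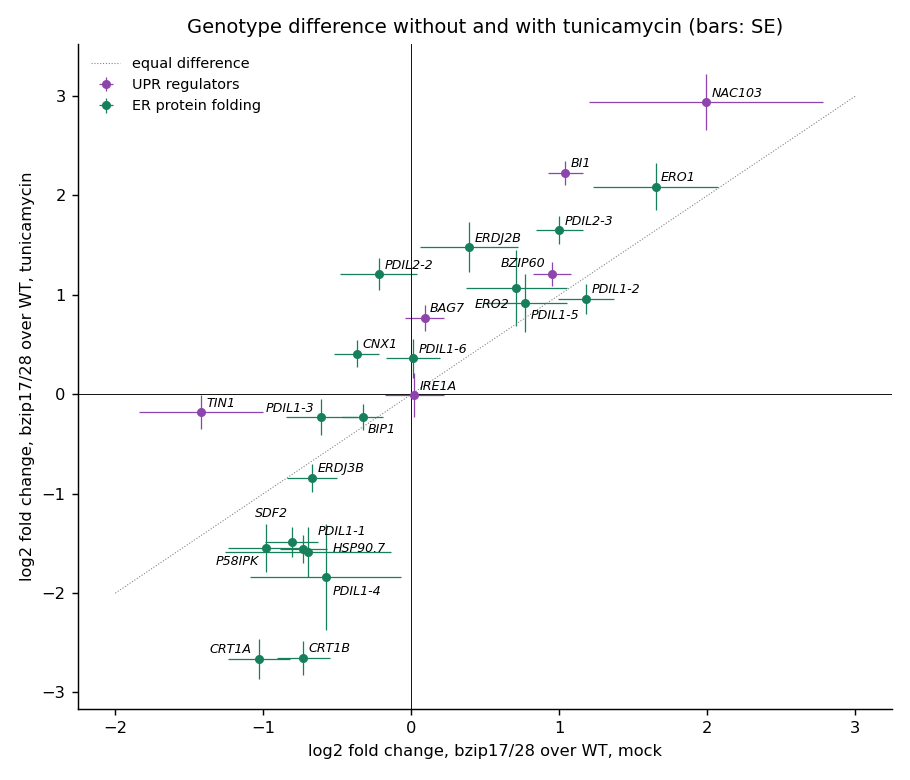
Log2 fold change of bzip17/28 over WT under mock (horizontal) and under tunicamycin (vertical) for the tested regulators and folding genes, leaving out BZIP17 and BZIP28; bars are standard errors and the dotted line marks equal differences. CRT1A and CRT1B lie lowest, at -2.66 and -2.65 on the vertical axis, and BI1 (1.04 and 2.23) lies above the line.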

How the data were processed

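Counts from 3'-end libraries of whole seedlings were used as deposited, per the labels and the submitters' processing notes made with Trim Galore 0.2.8, TopHat2 2.1.1, TopHat, SAMtools and HTSeq 0.6.0. No source used here gives the build, annotation or strand setting, so overlapping or antisense genes may share reads. The deposited count files list 58699 transcript models, summed here to 37336 loci, 26319 of them with 1 model. Reads set aside as ambiguous were a mean of 40.95% of assigned and ambiguous reads in bzip17/28 and 40.32% in WT mock libraries, and reads on no feature 2.74 to 4.49% of all. Neither entered the totals or the tests. Promoters were read from RefSeq TAIR10.1, in which 37051 loci were found, and so were symbols of genes outside the lists. Symbols and locus tags of list genes were written from general knowledge. For 452 of the 517 list genes the symbol matched, in full or in part, a symbol or synonym there.

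A single model of the 36 libraries (edgeR 4.0.16, R 4.3.3) served all 6 comparisons: TMM scaling, a low-count filter by filterByExpr at a minimum of 10, and a quasi-likelihood test on 24 residual degrees of freedom. Benjamini-Hochberg adjustment ran over 10480 genes. The threshold was an adjusted p of 0.05. Alternatives, including limma 3.58.1 and DESeq2 1.42.0, are given below. Counting intervals are 95% and exact, cover counting error only, and a group at 0 was set to a floor of 3 counts over its libraries.

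The 27 lists held 517 genes, of which 344 passed the filter on low counts, and 139 of the other 173 have several models. Members, lists and comparisons were chosen with earlier results of these data known. The rule named the genes of the genotypes, the 12 largest rises and falls with at least 5 CPM in the higher group and no overlap of libraries (36.2% of genes tested did not overlap), the 3 lowest adjusted p of each list, all tested regulators and folding genes, and the 5 largest rises and falls of the other comparisons. Not every gene so named is printed. SAR1B, SLY1, JAZ6 and LOX3 were named after their values were seen.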

Additional observations from a re-analysis of the deposited data

Results flagged for a closer look

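Named genes are given here because their genotype difference under tunicamycin differed from that under mock, by edgeR's interaction test with Benjamini-Hochberg adjustment. Values are log2, tunicamycin minus mock. Among ER genes the difference was upward for PDIL2-2 (1.43), BI1 (1.19), CNX1 (0.78) and BAG7 (0.68) and downward for CRT1B (-1.93), CRT1A (-1.63) and PDIL1-1 (-0.83). PDIL2-2 stood between 11.7 and 19 CPM in WT and at 12, 12.4 and 18.3 in bzip17/28 under mock, and at 116, 112 and 109 against 235, 276 and 266 under tunicamycin.

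Outside the ER it was upward for the small heat shock genes HSP17.4 (3.41) and HSP17.6A (3.40), for AT1G55335 (2.43), AT2G25560 (2.27), CLH1 (1.13) and F6'H1 (1.05). It was downward for GASA6 (-2.03), PRX7 (-1.78), AT5G25260 (-1.77) and the aquaporins PIP1;5 (-0.94), PIP2;7 (-0.90) and TIP2;1 (-0.64). The calls of HSP17.4, HSP17.6A and AT2G25560 were lost with limma-voom (adjusted p = 0.174, 0.352 and 0.272).

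The share of reads set aside as ambiguous, which no comparison used, was 40.95% in bzip17/28 mock libraries, above that of every WT mock library (mean 40.32%).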

How the results depend on the processing

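The count of genes for bzip17/28 against WT under mock stayed within 1.5 times of 1894 under every alternative run: 1564 with loci of 1 transcript model, 1732 with DESeq2, 2232 with limma-voom, and 1275 to 1612 without 1 library. The cause of the larger moves below was not tested. Fitting the libraries of a comparison alone gave 1683 genes against s1p/s2p, 2108 against bzip28/60, 1905 under tunicamycin and 132 for the interaction. limma-voom gave 1638, 2078, 2066 and 206. Leaving out 1 library gave 689 to 953 against s1p/s2p, 974 to 1129 against bzip28/60, 1052 to 1407 against bzip17/60, 3141 to 3844 under tunicamycin and 269 to 1084 for the interaction, the last without WT tunicamycin 1. Without s1p/s2p mock 2 or 3 the counts were 701 and 689, without bzip17/60 mock 2 1052, and for the interaction 269 without WT mock 1 or bzip17/28 tunicamycin 3 and 281 and 285 without bzip17/28 mock 1 or 2. The balance of higher and lower genes turned in some settings. For WT under mock it went from 960 and 934 to 1055 and 1133 (own libraries) and 1097 and 1135 (limma-voom). Under tunicamycin it went from 1778 and 1934 to 2277 and 1535 (library size alone) and 1875 and 1720 (no filter). There it also turned without any 1 bzip17/28 tunicamycin library or WT tunicamycin 2. The interaction went from 210 and 222 to 78 and 54 (own libraries), 219 and 201 (library size alone) and 273 and 233 (no filter). Its balance also turned without any 1 bzip17/28 mock library, WT mock 2 or 3, bzip17/28 tunicamycin 2 or 3, or WT tunicamycin 1.

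Of 139 list genes called, 126 were called with DESeq2, 129 with library size alone, 136 with limma-voom and 98 to 119 without 1 library, fewest without WT mock 3. With loci of 1 transcript model 117 of the 139 could be tested, and 112 kept their call. Libraries of bzip17/28 and WT mock with the same replicate number did not deviate together (correlations -0.004, -0.007 and -0.034). Those with different numbers ran from -0.018 to 0.025. Values as low as these for every pair do not show whether equal numbers share a batch. With the replicate block the counts were 1858, 1017, 1318, 1544, 3666 and 404, in the order WT, s1p/s2p, bzip28/60, bzip17/60, tunicamycin and interaction. At 1559173 to 2385337 counts a library, genes of a few CPM rest on a few reads, and 173 of 517 list genes could not be tested.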

Other observations

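A few genes, chosen after their values were seen, differed among the WT libraries. AT2G25560, the DnaJ protein gene, stood at 1428, 1831 and 172 CPM in WT mock and at 71.4 to 172 in all 24 mutant libraries. GTB1 (AT1G65440) stood at 297, 434 and 60.8 CPM in WT mock and at 41 to 137 in the mutants, with a genotype difference of -2.31 ± 0.35 under mock (edgeR, adjusted p = 7.64e-06). In both genes WT mock 3 lay apart from WT mock 1 and 2.

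AT3G10815, a RING/U-box protein gene that begins 3185 bases past the end of BZIP28 on chromosome 3, had no read in any of the 6 bzip17/28 libraries under mock or tunicamycin. In WT mock it stood at 6.08, 2.76 and 3.35 CPM, so it was at least 9.53-fold lower in bzip17/28 mock, against a floor of 3 counts over the group. In mock seedlings of s1p/s2p, bzip28/60 and bzip17/60 its mean was 3.09, 1.94 and 2.28 CPM.

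PAP26, a purple acid phosphatase gene, had a mean of 0.712 CPM in s1p/s2p mock and of 133 to 138 CPM in the other 4 mock genotypes.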
